A study of Mus musculus with 13 samples.

Results

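The Dlk1-Dio3 domain is an imprinted stretch of distal mouse chromosome 12. Its 5 members here, Dlk1, Meg3, Rian, Mirg and Dio3, were taken by symbol from the deposited table of read counts, and all 5 were found among its 24495 genes. RNA was sequenced in bulk from 13 samples that form 4 groups, all from embryonic day 12.5 mouse embryonic fibroblasts (MEFs) of the strain background V6.5 129XBI/6. All carry a Tet2-/- genotype with doxycycline-inducible reprogramming factors (OKSM; rtTA). The Untreated group (n = 3) was left without reprogramming, and whether it carries a vector is unclear from the labels. The other groups were infected with a pMXs retrovirus and studied at reprogramming day 5: the empty vector (pMXs, n = 3), wild-type Tet2 (Tet2-WT, n = 3) and a stalling mutant (Tet2-E, n = 4). All 4 groups, Untreated included, were kept in 5% oxygen. The day 5 cells grew on mitomycin-treated feeder MEFs, with doxycycline at 2 µg/mL and LIF at 1000 U/mL. They also received a pair of inhibitors that hold mouse cells in the naive state, PD0325901 against MEK at 1 µM and CHIR99021 against GSK3 at 3 µM. Neither sorting nor separation from the feeders is described, so a day 5 library stands for its whole culture.

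In an imprinted domain each gene is read mainly from the chromosome of 1 parent. Dlk1, which encodes a transmembrane relative of the Notch ligands that holds back adipocyte formation, and Dio3, which encodes the deiodinase that inactivates thyroid hormone, are protein-coding and expressed from the paternal chromosome. Meg3, Rian and Mirg are noncoding RNAs expressed from the maternal chromosome, and Rian and Mirg host many small nucleolar RNAs and microRNAs. The domain is known in reprogramming because its noncoding genes can become silent in induced pluripotent stem cells. The counts do not separate the parental alleles, so coding and noncoding here name the genes, and parental origin was not measured.

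The start regions of Dlk1, Meg3 and Dio3 are printed first, because Dlk1 and Dio3 fell much further than Meg3 in pMXs against Untreated. Each window is from RefSeq on GRCm38.p6, plus strand, from 250 bases before to 50 bases after the gene's start, with every CG dinucleotide, the site that Tet enzymes oxidize when it is methylated, in capitals. They were matched by symbol, since the deposited counts were made on mm9.
Dlk1, chr12:109452573-109452872: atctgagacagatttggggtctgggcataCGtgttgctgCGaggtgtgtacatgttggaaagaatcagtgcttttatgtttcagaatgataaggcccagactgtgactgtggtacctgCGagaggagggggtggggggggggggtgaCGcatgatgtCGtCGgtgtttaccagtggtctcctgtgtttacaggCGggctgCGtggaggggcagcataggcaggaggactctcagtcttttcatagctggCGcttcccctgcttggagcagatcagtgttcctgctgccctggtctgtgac
Meg3, chr12:109540746-109541045: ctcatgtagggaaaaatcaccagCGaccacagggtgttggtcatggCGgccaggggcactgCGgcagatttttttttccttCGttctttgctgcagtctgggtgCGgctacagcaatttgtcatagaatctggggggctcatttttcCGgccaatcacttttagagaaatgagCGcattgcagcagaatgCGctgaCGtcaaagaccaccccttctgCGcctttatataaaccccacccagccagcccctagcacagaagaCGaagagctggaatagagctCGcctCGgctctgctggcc
Dio3, chr12:110278980-110279279: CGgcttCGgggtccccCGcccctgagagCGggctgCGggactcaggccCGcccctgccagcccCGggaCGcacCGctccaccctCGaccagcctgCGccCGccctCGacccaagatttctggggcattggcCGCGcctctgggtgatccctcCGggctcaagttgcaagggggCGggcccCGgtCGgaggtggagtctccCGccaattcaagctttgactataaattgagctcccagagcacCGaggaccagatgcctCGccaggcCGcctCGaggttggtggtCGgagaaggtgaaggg
The Dio3 window held 25 CG dinucleotides and 69% G or C, a number of CG reached by 18.4% of the 32851 RefSeq windows of this length, whose median was 7. The Dlk1 window held 9 (reached by 45.8% of windows) and the first Meg3 window 13 (37.9%). Windows at the other starts, not printed, held 10 for Mirg, 1 for a second Meg3 start and 0 for Rian. Searched on both strands, the Meg3 window had 1 match to TGCCGC, the hexamer bound by the imprint-protecting factor ZFP57, found in 11.6% of all windows. It also had 1 match to the cAMP response element TGACGTCA, found in 1.79% of windows. TATAAA matched 2 times in the Meg3 window, with the matches overlapping on opposite strands, and 1 time in the Dio3 window (13.6% of all windows have a match). The Dlk1 window held none of these 3 motifs. These matches describe the sequence only, and DNA methylation and factor binding were not analysed here.

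Depth and identity were read before the members. Total counts ran from 14052646 to 26265382 per library, and 14607 genes were tested. Tet2 RNA averaged 43.8 counts-per-million (CPM) in Untreated, 46.4 in pMXs, 1217 in Tet2-WT and 1160 in Tet2-E, with Tet2-E replicate 100 apart from its group at 581 CPM. Tet2 RNA was thus present without a Tet2 vector, and gene-level counts do not show whether these reads come from the deleted part. All 12 fibroblast markers were detected in every group. Their summed level was 39360 to 41690 CPM in Untreated, 16360 to 18540 in pMXs, 10330 to 12040 in Tet2-WT and 14000 to 15140 in Tet2-E. The 10 pluripotent markers summed to 0.828 to 2.06 CPM in Untreated and 323 to 567 CPM at day 5, with Dppa4 and Dppa5a at 0 in Untreated and pMXs. L1td1 alone made up most of the day 5 sums (319 CPM in pMXs, 512 in Tet2-WT and 357 in Tet2-E). In bulk RNA, fewer cells that express a gene and less RNA per cell cannot be told apart.

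The first comparison, pMXs against Untreated, asks what day 5 of reprogramming, with its feeder cells and medium, did to the domain in cells of Tet2-/- genotype. Every member was lower at day 5, and the 2 coding members fell much further than the 3 noncoding ones. This contrast is in fold change: by level, Dlk1 in pMXs (mean 3.33 CPM) was not far below Mirg (6.55 CPM). Dlk1 was 166-fold lower and Dio3 at least 57.5-fold lower. Meg3 was 3.93-fold, Mirg 2.69-fold and Rian 2.52-fold lower.

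Dlk1 was among the abundant genes of the Untreated MEFs, at 625, 480.2 and 515 CPM in replicates 1, 2 and 100. In pMXs replicates 2, 100 and 250 it was at 3.11, 2.64 and 4.24 CPM. The groups lay far apart. For its level, the spread was wider in pMXs (3.33 ± 0.823 CPM, SD, n = 3) than in Untreated (539.8 ± 75.4 CPM, n = 3). The edgeR log2 fold change was -7.38 ± 0.15 (SE, adjusted p = 3.46e-14), and 0.0411% of the genes tested had a lower value. Of all genes tested, 70.1% had an adjusted p under 0.05 in this comparison, 35% passed as lower, and 35.9% were lower with no overlap between the groups. Passing the test was therefore common here, and the members stand out, where they do, by size.

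Dio3 was a low-abundance gene even in Untreated, at 2.96, 3.68 and 3.75 CPM (71, 73 and 77 counts in replicates 1, 2 and 100). No Dio3 read was counted in any of the 3 pMXs libraries, 55018792 counts in all. Against a floor of 3 counts over the pMXs group, which is 0.0545 CPM of its summed total, the Untreated level of 3.13 CPM on the same scale was at least 57.5-fold higher. Dio3 passed the filter on low counts only through the Untreated libraries, so its passing the test (edgeR adjusted p = 1.11e-07) is no added support, and its fitted fold change is not given. Its antisense neighbour Dio3os, a noncoding RNA, had 14, 8 and 8 counts in the Untreated replicates and 0 in pMXs, and was too low to be tested.

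Meg3, the first of the noncoding RNAs along the domain, was at 803, 660.4 and 779.8 CPM in Untreated replicates 1, 2 and 100 and at 192, 173 and 206 CPM in pMXs replicates 2, 100 and 250. Its log2 fold change was -1.97 ± 0.17 (edgeR adjusted p = 8.79e-08). Rian, the host of the small nucleolar RNAs, was at 564, 569 and 580.0 CPM in Untreated and at 249, 198 and 233 CPM in pMXs. Rian had the smallest spread for its level in Untreated, 571 ± 8.19 CPM (SD, n = 3), and the smallest change, -1.33 ± 0.10 (edgeR adjusted p = 1.84e-08). Mirg, the microRNA host, gave far fewer counts than Rian, at 21.2, 16.7 and 14.6 CPM in Untreated and 7.10, 5.78 and 6.78 CPM in pMXs. It changed by -1.43 ± 0.15 (edgeR adjusted p = 4.73e-07). The 95% interval of Dlk1 ran from -7.68 to -7.08, far below those of Meg3 (-2.30 to -1.64), Rian (-1.54 to -1.13) and Mirg (-1.72 to -1.14). Among the noncoding genes, the Mirg interval overlapped the others, while that of Meg3 lay below that of Rian. Between 6.18% and 11.2% of the genes tested had a lower fold change than these 3 noncoding genes.

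**Figure D1:**
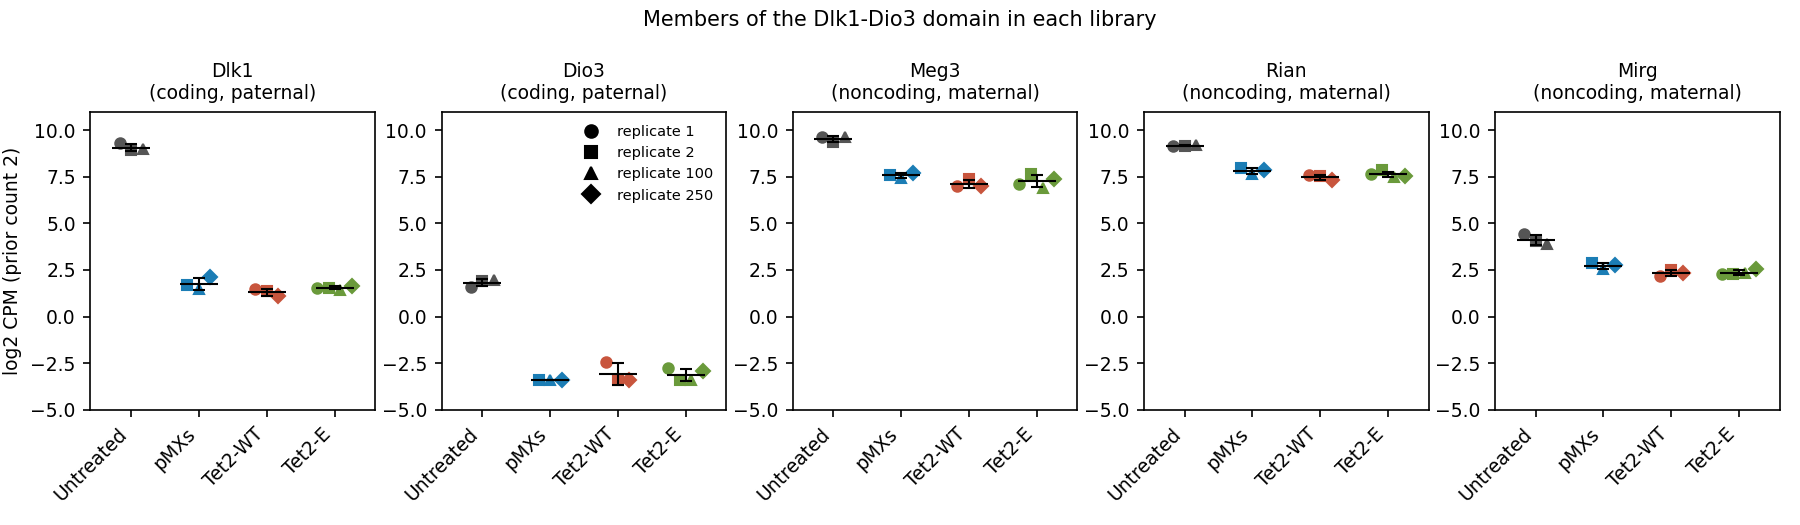
Level of each member in each library, as log2 CPM with a prior count of 2, by group; shapes mark replicate numbers, and bars the group mean ± SD. Dlk1 and Dio3 drop furthest from Untreated in all 10 day 5 libraries, while Meg3, Rian and Mirg step down by less. Day 5 Dlk1 stands at 1.10 to 2.12, and only Dio3 lies near the bottom of its panel.

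Values within each set of replicate numbers rest on a single pMXs library (numbers 1 and 2) or a single Untreated library (100 and 250), whose spread is taken from the other groups. Within replicate numbers 1 and 2 the log2 fold change was -7.47 for Dlk1, -1.93 for Meg3, -1.19 for Rian and -1.42 for Mirg, and within numbers 100 and 250 it was -7.30, -2.04, -1.43 and -1.24. The fibroblast markers fell in 12 of 12, with a median log2 fold change of -2.18 beside -0.001 over all genes. Single markers ran from -0.375 (Twist1) to -5.471 (Pdgfra). Rian and Mirg fell by less than the median, the Meg3 interval (-2.302 to -1.645) included it, and Dlk1 fell much further. The part of a falling fibroblast content in these changes was not tested. Of the 4 adipocyte markers 1 was tested, and the list summed to at most 3.798 CPM in Untreated and 1.10 CPM at day 5.

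Ratios of counts within a library show the same contrast without any scaling between libraries. They are not corrected for gene length and are read only between libraries. Meg3 had 1.29 to 1.52 counts per Dlk1 count in Untreated, and 48.7 to 65.5 in pMXs. The 3 noncoding genes together made up 71.2% ± 2.02 (SD, n = 3) of the members' counts in Untreated and 99.2% ± 0.142 in pMXs. All 5 members took 0.172% ± 0.0151 of the library's counts in Untreated and 0.0438% ± 0.00402 in pMXs. Within the noncoding genes the balance moved too: there were 0.702 to 0.861 Rian counts per Meg3 count in Untreated and 1.127 to 1.297 in pMXs. Mirg per Rian did not separate the groups, at 0.0252 to 0.0376 in Untreated and 0.0285 to 0.0292 in pMXs. The noncoding mean minus the coding mean of log2 CPM rose from 2.16 ± 0.11 to 6.87 ± 0.12 (SD, n = 3 and 3), a value that depends on the prior count given to Dio3 at 0 counts.

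**Figure D2:**
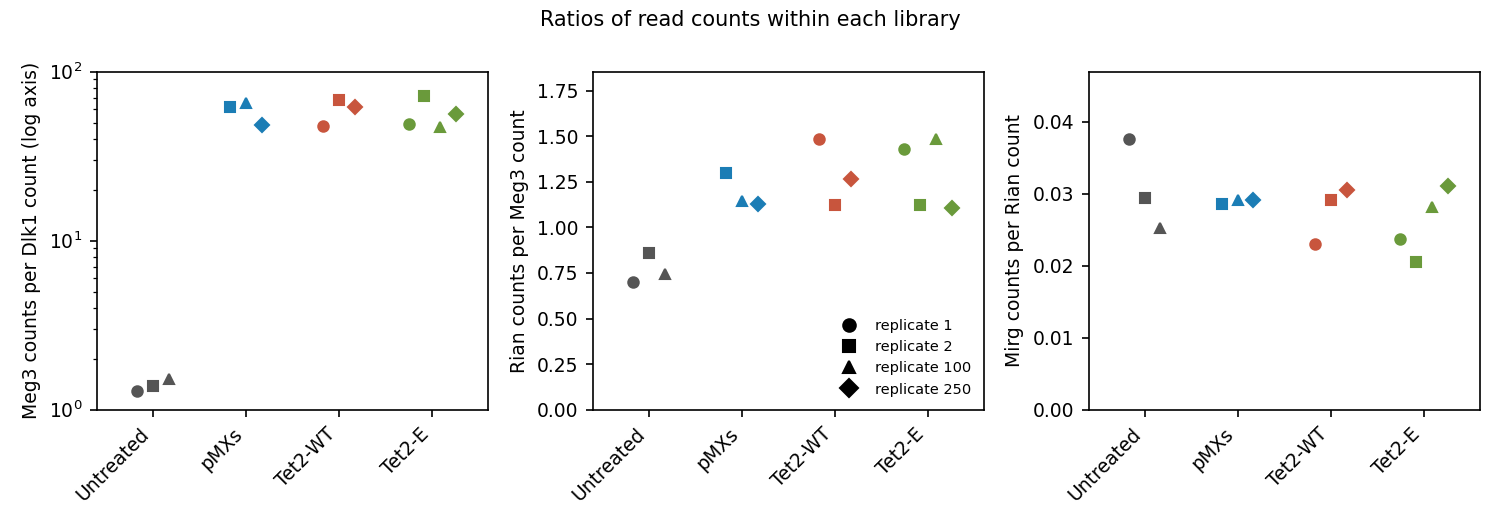
Counts of 1 noncoding member per count of another member in each library; the left panel has a log axis and shapes mark replicate numbers. Meg3 per Dlk1 is at 1.29 to 1.52 in Untreated and 46.9 to 71.8 in the day 5 libraries, Rian per Meg3 is higher in every day 5 library than in Untreated, and Mirg per Rian overlaps between groups.

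Other genes inside the domain were also lower in pMXs. The table held 78 rows from Begain to Dio3, both included, of which 27 were 0 in every library and 13 were tested. Rtl1, a paternally expressed coding gene derived from a retrotransposon, was at 3.75, 3.38 and 3.603 CPM in Untreated replicates 1, 2 and 100 and at 1.65, 0.498 and 0.958 CPM in pMXs replicates 2, 100 and 250. It fell by 1.86 ± 0.45 (edgeR adjusted p = 0.0018), nearer to the noncoding genes than to Dlk1. Over the alternatives Rtl1 ran from -2.41 within replicate numbers 100 and 250 to -1.11 within 1 and 2 (adjusted p = 0.0465). A maternally expressed RNA runs antisense to Rtl1, and whether counting used the strand is not given in the sources used here, so the Rtl1 row may hold reads of both. Begain, a coding gene of neuronal synapses at the proximal end of the domain, was at 14.1, 9.17 and 9.79 CPM in Untreated and 1.65, 2.84 and 2.40 CPM in pMXs, a change of -2.24 ± 0.22 (edgeR adjusted p = 2.69e-07).

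Of the 7 small nucleolar RNA rows, which lie within Rian, 5 were tested. The most abundant, listed under the symbol AF357359, went from 59.2 ± 16.3 CPM in Untreated to 18.1 ± 1.99 CPM in pMXs (log2 fold change -1.71, edgeR adjusted p = 1.19e-06). The other rows in this class (AF357426, DQ267100 and DQ267102 among them) averaged 1.16 CPM or less in Untreated. These rows share their ground with Rian, and reads of a host cannot be told apart from reads of its small RNAs. The 61 microRNA hairpin rows together had 2.72 to 4.14 CPM in Untreated and 0.634 to 1.16 CPM in pMXs, and 26 of them had no count anywhere. Libraries selected for mRNA do not measure mature microRNAs, so these counts may be pieces of the host transcripts.

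The 2 hairpin rows with the most counts were Mir3072 (83 over all libraries), the only one tested, and Mir377 (42). Their mature arms, from RefSeq, are shown with the seed (bases 2 to 8) in capitals because the seed sets which targets a microRNA can pair with.
mmu-miR-3072-5p: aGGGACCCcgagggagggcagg
mmu-miR-3072-3p: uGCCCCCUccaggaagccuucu
mmu-miR-377-5p: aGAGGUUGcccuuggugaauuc
mmu-miR-377-3p: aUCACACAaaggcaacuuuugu
All 61 hairpin rows matched RefSeq entries, with 114 mature arms and 104 distinct seeds. Of these seeds 9 were shared by 2 arms of different names, miR-3070-5p was listed under 2 hairpins, and none of the 4 printed seeds was shared. Mir3072 had 57 counts in the Untreated libraries together and 8 in pMXs. It passed the filter only through the Untreated libraries.

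Genes on either side of the domain moved in both directions. Of 20 genes tested from a list of flanking genes, 6 rose and 4 fell in pMXs against Untreated, with a median log2 fold change of 0.107. The list holds Wdr20rt, which lies elsewhere on the chromosome, and lacks Slc25a47 and 1700001K19Rik. Of the 21 rows tested in order along the chromosome beside the domain, 6 rose and 5 fell. The lowest of these was 1700001K19Rik, an unnamed gene model picked after its values were seen, at -2.13 (edgeR adjusted p = 0.000131), as low as rows inside the domain. Wdr25, the gene before Begain, was at 0.34 (edgeR adjusted p = 0.0622), and Ppp2r5c, a phosphatase subunit gene after Dio3, fell by 0.19 (adjusted p = 0.0392). Among the listed genes, Hsp90aa1, a chaperone gene, rose by 1.07 ± 0.08 and Traf3, a signalling adaptor gene, by 0.68 ± 0.10. Slc25a29, a mitochondrial transporter gene, fell by 1.10 ± 0.19 and the kinase gene Cdc42bpb by 0.42 ± 0.07. All 13 tested rows of the domain passed as lower, where 35% of all genes did. The count is a description, since 2 of these rows (Dio3 and Mir3072) were above the filter level in no day 5 library, and 2 more (AF357425 and DQ267102) in 1.

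**Figure D3:**
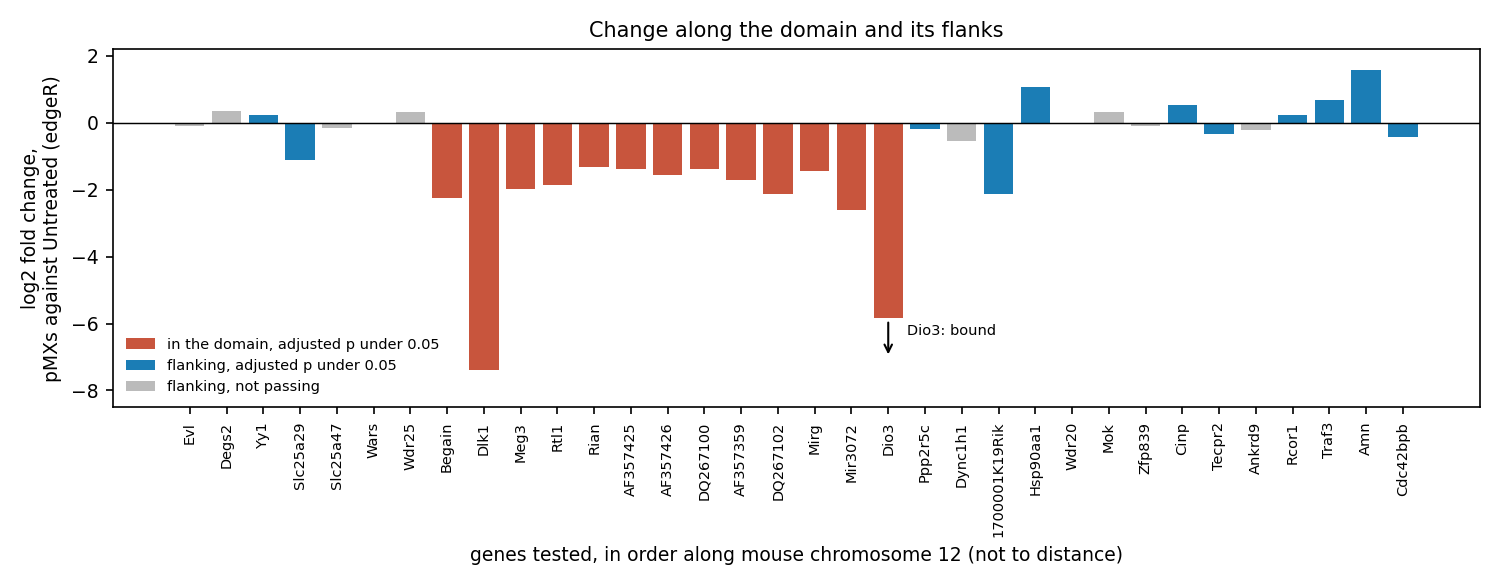
Log2 fold change (edgeR) of pMXs against Untreated for each tested row, in order along chromosome 12; red bars lie in the domain, blue and grey bars beside it, and the Dio3 bar stands at its bound. All 13 domain rows lie below 0, with Dlk1 at -7.38 and the rows between Dlk1 and Dio3 at -1.33 to -2.60, while flanking genes lie on both sides of 0.

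Tet2-WT against pMXs asks what adding working Tet2 changed by day 5. No member was brought back: Dlk1, Meg3, Rian and Mirg were all slightly lower with Tet2-WT, by 1.27-fold to 1.36-fold, and Rian passed the test. Rian was at 189.5, 187 and 159.6 CPM in Tet2-WT replicates 1, 2 and 250, all below the 3 pMXs libraries (198 to 249 CPM). It fell by 0.34 ± 0.10 (edgeR adjusted p = 0.0384, n = 3 and 3). Of all genes tested 12.5% passed in this comparison, so 1 member of 5 is near the background. The call on Rian was lost on leaving out any of 5 of the 6 libraries and kept without pMXs replicate 100 (adjusted p = 0.0212). Without pMXs replicate 2 the adjusted p was 0.144, without pMXs replicate 250 it was 0.128, and without Tet2-WT replicate 1, 2 or 250 it was 0.0627, 0.0727 or 0.134, and over these 6 omissions the log2 fold change ran from -0.43 to -0.27. It passed within replicate numbers 1 and 2 (-0.41, adjusted p = 0.0209) and within 100 and 250 (-0.43, 0.0159), where an arm of a single library borrows its spread from the other groups, and over all alternatives the adjusted p ran from 0.00401 to 0.144.

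Meg3 was at 128, 167 and 126 CPM in Tet2-WT replicates 1, 2 and 250, also below every pMXs library (173 to 206 CPM). Its change did not pass (-0.44 ± 0.16, interval -0.76 to -0.12, edgeR adjusted p = 0.0984). It passed in a fit of only these 2 groups (0.0346) and in DESeq2 (0.0464). Mirg was at 4.36, 5.45 and 4.87 CPM, below the pMXs libraries, and did not pass (-0.41 ± 0.16, interval -0.72 to -0.09, adjusted p = 0.116). All 3 noncoding genes thus had groups that did not overlap, as did 34.6% of all genes tested.

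Dlk1 was at 2.67, 2.46 and 2.05 CPM with Tet2-WT, overlapping the pMXs range, and its change did not pass (-0.43 ± 0.19, interval -0.80 to -0.07, edgeR adjusted p = 0.159). Dio3 had 2 counts in Tet2-WT replicate 1 and 0 in the others. Over the group, Untreated was 105 times the Tet2-WT level, with a counting interval of 28.7 to 872. At this depth a difference of Dio3 between the day 5 groups was not detectable. The balance of coding and noncoding genes was alike in value: Meg3 per Dlk1 was 47.8 to 67.7 with Tet2-WT and the noncoding share 99.3%, over libraries whose 5 members took 0.0336% of counts. Of the 12 fibroblast markers 1 rose and 6 fell with Tet2-WT (median -0.81), and the part of this in the lower noncoding levels was not tested.

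**Figure D4:**
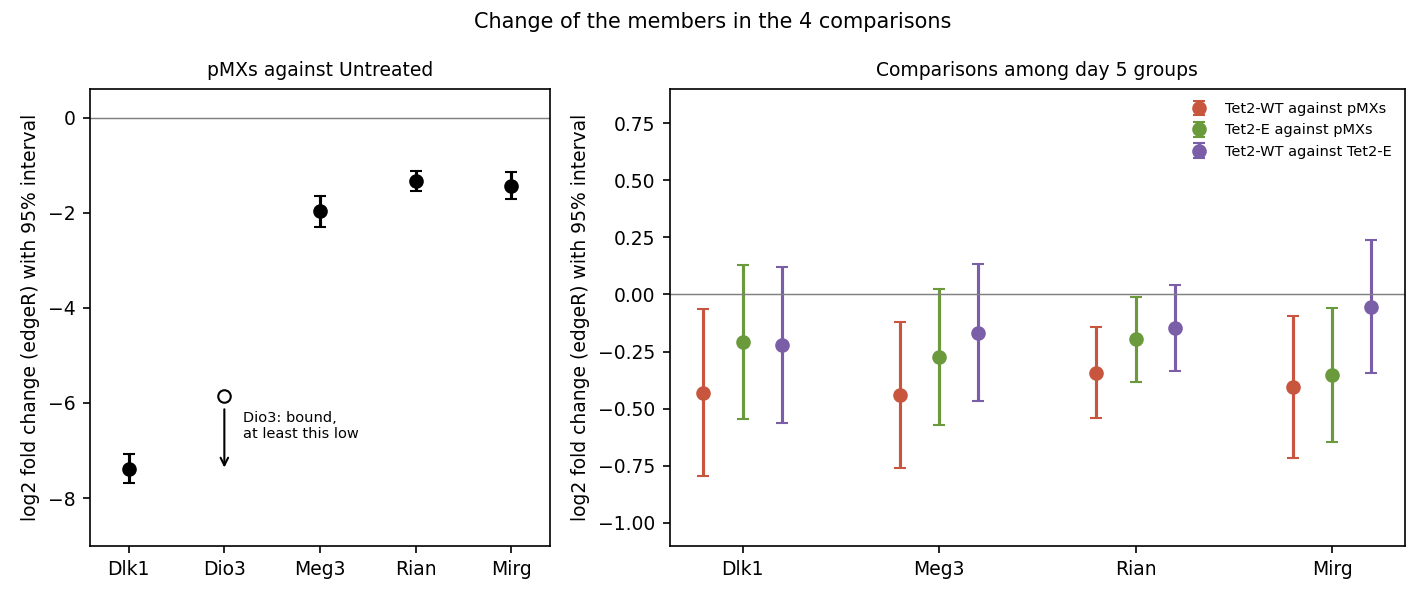
Log2 fold change (edgeR) of each member with its nominal 95% interval (normal quantile). The left side is pMXs against Untreated. The right side holds the comparisons among day 5 groups, on a finer axis, without Dio3, which had 0 to 2 counts per library. In the left panel Dlk1 and the Dio3 bound lie far below the noncoding genes; in the right panel all points lie between -0.45 and 0.

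Tet2-E against pMXs shares its pMXs libraries with the previous comparison, so the values are set side by side and are not separate evidence. None of the members passed with Tet2-E, where 0.0479% of all genes (7 genes) did so in edgeR. That count was unstable, at 93 with the replicate block, 152 with a term for the set, 141 in DESeq2 and 1 to 50 without single libraries, and under each of these no member passed. The log2 fold changes were -0.21 ± 0.17 for Dlk1 (edgeR adjusted p = 0.757), -0.27 ± 0.15 for Meg3 (0.608), -0.19 ± 0.10 for Rian (0.554) and -0.35 ± 0.15 for Mirg (0.474). At an unadjusted p under 0.05 Mirg alone would pass (0.0317), and DESeq2 called none of the members. Mirg was at 4.72, 4.71, 5.04 and 5.780 CPM in Tet2-E replicates 1, 2, 100 and 250, all below the lowest pMXs value of 5.784 CPM, the nearest at 5.780. Groups did not overlap for 10.2% of all genes. Meg3 spread more, at 139, 204, 121 and 168 CPM, and reached the pMXs range in replicate 2. Rian was at 199, 229, 179 and 186 CPM, and Dlk1 at 2.83, 2.84, 2.58 and 2.98 CPM. Both overlapped pMXs. The fibroblast markers had 0 calls with Tet2-E, at a median of -0.21. Without Tet2-E replicate 100, whose Tet2 level stood apart, the members' values were -0.17 for Dlk1, -0.17 for Meg3, -0.15 for Rian and -0.35 for Mirg, and again none passed.

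Tet2-WT against Tet2-E asks whether the enzymes differ. The intervals of the difference were -0.56 to 0.12 for Dlk1, -0.47 to 0.13 for Meg3, -0.34 to 0.04 for Rian and -0.35 to 0.24 for Mirg, all with overlapping groups, where 15% of all genes did not overlap. None passed (edgeR adjusted p = 0.657, 0.727, 0.543 and 0.949), while 4.62% of all genes did. At an unadjusted p under 0.05 the count of members was also 0 in edgeR, and DESeq2 called 0. The intervals reach down to -0.56, so the values do not show that the enzymes act alike. Dio3 had 1, 0, 0 and 1 counts in Tet2-E replicates 1, 2, 100 and 250, and Untreated was 134 times that level (36.6 to 1110).

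The order of the members by mean CPM was Meg3, Rian, Dlk1, Mirg and Dio3 in Untreated, and Rian, Meg3, Mirg, Dlk1 and Dio3 in each day 5 group. CPM is not per length, so the order is read between groups only. Untreated means were 748 ± 76.5 for Meg3, 571 ± 8.19 for Rian and 539.8 ± 75.4 for Dlk1, and the last pair overlapped within its spread. With pMXs the means were 227 ± 25.9 for Rian, 190.5 ± 16.7 for Meg3, 6.55 ± 0.686 for Mirg and 3.33 ± 0.823 for Dlk1. With Tet2-E they were 198 ± 21.9, 158 ± 36.2, 5.06 ± 0.504 and 2.81 ± 0.169, and with Tet2-WT 179 ± 16.6, 140.2 ± 22.9, 4.89 ± 0.541 and 2.40 ± 0.315. Every member but Dio3 thus had its means in the order pMXs, Tet2-E, Tet2-WT, with neighbours that did not pass the test between them.

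Rtl1 and Begain varied within the day 5 groups. Rtl1 was at 2.06, 1.27 and 0.573 CPM in Tet2-WT replicates 1, 2 and 250 and at 1.36, 1.45, 0.448 and 1.40 CPM in Tet2-E replicates 1, 2, 100 and 250, with 12 to 44 counts a library. Begain was at 1.83, 2.13 and 2.77 CPM with Tet2-WT and 1.99, 1.66, 2.35 and 2.06 CPM with Tet2-E. Neither passed in a comparison among day 5 groups. The AF357359 row was at 12.97 ± 1.27 CPM with Tet2-WT and 16.0 ± 3.45 CPM with Tet2-E. Dio3os had 1 count in the Tet2-WT group and 1 in the Tet2-E group.

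Genes that act on the domain or its products gave the context. Their counts of calls stand beside 70.1% of all genes passing in pMXs against Untreated, 35% in each direction, and 12.5% with Tet2-WT. Of 19 tested genes for imprint maintenance and regulation of the domain, 14 rose and 1 fell in pMXs against Untreated (median 0.47), where 70.1% of all genes passed. Dnmt3b, a de novo DNA methyltransferase, rose by 1.78 ± 0.16 (8.26 against 2.42 CPM), and Uhrf1, which guides maintenance methylation, by 1.42 ± 0.17. Aff3, which binds the methylated control region of the domain, fell by 2.03 ± 0.17 (6.55 against 26.5 CPM, edgeR adjusted p = 3.2e-08). With Tet2-WT against pMXs 1 rose, Tet2 itself, and 1 fell, Dnmt3a (-0.38 ± 0.11, 67.8 against 88.3 CPM, edgeR adjusted p = 0.0309).

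Of 23 imprinted genes of a co-regulated network outside the domain, 4 rose and 13 fell in pMXs against Untreated (median -0.36), a share passing near the 70.1% of all genes. The trophoblast factor gene Ascl2 rose by 2.81 ± 0.25 and Gatm, a creatine synthesis gene, by 2.54 ± 0.24. The Untreated mean of Ascl2, 0.343 CPM, lay under the filter level of 0.455 CPM, so the size of its rise rests on few counts. The noncoding RNA H19, maternally expressed like Meg3, fell by 3.49 ± 0.38 (5.91 against 69.4 CPM), and Zim1 by 4.06 ± 0.35. With Tet2-WT 2 rose, Peg10 (1.51 ± 0.32) and Gatm (1.10 ± 0.19), and 5 fell, with H19 at -3.46 ± 0.59 and Igf2, a fetal growth factor gene, at -2.14 ± 0.33. These falls were larger than the change of any Dlk1-Dio3 noncoding gene with Tet2-WT, the lowest of which was -0.44.

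Among Dlk1 relatives and adipogenic genes, 4 of 15 rose and 9 fell in pMXs against Untreated (median -0.33), where 35% of all genes passed in each direction. Dlk2, the closest relative of Dlk1, rose by 2.12 ± 0.23 (8.97 against 2.04 CPM) and the receptor gene Notch4 by 1.99 ± 0.30. Sox9, which Dlk1 acts through in preadipocytes, fell by 3.58 ± 0.16 and Fn1, the fibronectin gene, by 2.21 ± 0.12. With Tet2-WT 1 rose, Pparg, the adipogenic master regulator, by 1.13 ± 0.34 (1.72 against 0.799 CPM, edgeR adjusted p = 0.0382), and 2 fell, Fn1 (-0.54 ± 0.11) and Notch3 (-0.50 ± 0.12).

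Of 11 thyroid hormone genes 2 rose and 6 fell in pMXs against Untreated (median -0.70), again a share near the 70.1% of all genes. Dio2, the deiodinase that activates the hormone and so opposes Dio3, fell by 3.68 ± 0.70 (0.244 against 3.64 CPM). Its pMXs mean lay under the filter level of 0.455 CPM, and its log2 fold changes from pMXs were negative with Tet2-WT (-0.636) and Tet2-E (-0.345). Dio2 thus met the filter mainly through Untreated, and its passing the test is no added support. The size of this fall rests on few counts. Crym, which binds thyroid hormone in the cytosol, had 3 counts over the Untreated libraries and 773 over pMXs (13.7 CPM). It passed the filter only through the day 5 groups, and its fitted fold change is not given. Klf9, a hormone target, rose by 0.61 ± 0.12. Hr, a receptor corepressor, fell by 1.55 ± 0.20. With Tet2-WT 0 rose and 3 fell: Crym (-1.54 ± 0.35), the transporter Slc16a10 (-0.87 ± 0.23) and the receptor Thra (-0.82 ± 0.14), the last named after its values were seen. With Tet2-E against pMXs none of these lists had a call other than Tet2.

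Levels across the 10 day 5 libraries showed how far the members moved together. These correlations are descriptions over libraries that share 3 groups and differ in depth. Pearson's r of log2 CPM was 0.813 for Meg3 with Rian, 0.763 for Dlk1 with Rian and 0.665 for Dlk1 with Meg3. It was 0.658 for Meg3 with Mirg, 0.615 for Dlk1 with Mirg and 0.576 for Rian with Mirg. The values of the coding Dlk1 with the noncoding genes lay within the range of those among the noncoding genes. Dio3 was left out of these values, having 0 to 2 counts per library.

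The genes whose pattern was most like each member over the day 5 libraries were Osbpl5 (r = 0.919), Cxcl15 (0.919, at only 0.118 CPM) and Pltp (0.902) for Dlk1. They were Zfp82 (0.895), Sorbs2 (0.894) and Fgfr3 (0.876) for Meg3. For Rian they were Sult1a1 (0.945, at only 0.4 CPM), Ltbp1 (0.941) and Wee1 (0.934), and for Mirg Trim46 (0.960), Foxo4 (0.956) and Cbx1 (0.949). Over all 13 libraries, where the step from Untreated to day 5 sets the value, they were Pdxdc1, Mfhas1 and Sh3bp5 for Dlk1 (0.997 each) and Magee1 (0.996), Acot11 (0.993) and Heatr5a (0.991) for Dio3. For Meg3 they were Fgfr3 (0.990), Pde6d (0.988) and Sra1 (0.987). Ltbp1 (0.994), Ddit3 (0.993) and Cxxc5 (0.993) came first for Rian, and Trim46 (0.992), Rac3 (0.990) and Nfic (0.988) for Mirg.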

How the data were processed

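RNA-seq was done on Untreated MEFs and on day 5 cultures with pMXs, Tet2-WT or Tet2-E. The deposited values are raw counts of reads per gene, made by the authors with STAR 2.6.1a on mm9 and featureCounts 1.6.2, per the submitters' processing notes, where bedtools 2.27.1, SAMtools 1.7, DESeq2 1.26.0 and R 3.6.2 are listed as well. Per the labels' protocols, a stranded mRNA kit was used, and libraries were prepared in 2 sets, without saying which library was in which. Elsewhere, set means a set of replicate numbers, a grouping read from the data and not given by the labels. Whether it matches the sets of library preparation is unknown. Nothing in the labels makes replicates separate cultures, so the spread behind the p-values is that between libraries and may be technical.

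Here, counts were analysed with edgeR 4.0.16 in R 4.3.3. Genes were kept by filterByExpr by group (count minimum 10, total minimum 15) and scaled by TMM. A robust quasi-likelihood fit over all 13 libraries gave the 4 comparisons, with Benjamini-Hochberg adjustment over all 14607 genes tested and a threshold of 0.05. The SE is the absolute log2 fold change over the square root of F. Intervals are 95%. Log2 CPM used a prior count of 2, and floors and ratios of Dio3 cover counting error only. The biological coefficient of variation was 0.102. The code was tested on simulated data.

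The members, gene lists and tests were chosen with earlier results of these data known. Named were the members, domain rows with at least 1 CPM in a library, Wdr25, Ppp2r5c and Tet2. Each list gave the called genes with the largest changes (up to 2 per direction, at a minimum of 1 CPM) or, with none called, 2 by lowest p. The 3 genes with the highest r were named for each member. Alternatives were DESeq2 1.42.0, its size factors, other filters, a term for the replicate number or its set, each set alone, a fit restricted to the compared groups, and omission of each library in turn. Residuals after group means correlated at 0.121 to 0.339 for day 5 pairs sharing a number, 0.078 to 0.363 for pairs of the same set and -0.42 to -0.05 for pairs across sets. Day 5 pairs within a set were thus all positive whether or not they shared a number, and pairs across sets were all negative. This describes a difference between the sets of replicate numbers, which were themselves read from the data, and pairing by number was not shown. The main fit holds no term for the number or its set, so the set difference stays in its spread. With a term for the set, 152 genes in place of 7 passed in Tet2-E against pMXs. In Tet2-WT against Tet2-E it was 1052 in place of 675. For pairs of an Untreated and a day 5 library that shared a number the range was -0.043 to 0.171.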

Additional observations from a re-analysis of the deposited data

How the results depend on the processing

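In pMXs against Untreated, Dlk1, Meg3, Rian and Mirg passed under each of 15 alternatives, and Rtl1 and Begain did too. Dio3 also passed, which is no support, since it met the filter only through Untreated. The shift of the median of all genes with DESeq2 size factors was at most -0.0089. With the replicate block no member's call changed: Rian kept its call in Tet2-WT against pMXs (-0.39, adjusted p = 0.0116), and the count of all genes in Tet2-E against pMXs went from 7 to 93. That count was 17 with no filter, 152 with a term for the set, 103 within numbers 1 and 2, 83 within 100 and 250, 0 with only the groups compared, 141 in DESeq2 and 1 to 50 without single libraries, the cause of which was not tested. In Tet2-WT against pMXs the members called were 1, but 2 with only the groups compared and in DESeq2, and 0 to 1 without single libraries, where all genes called ran from 1097 to 1821 (1830 in full). In Tet2-WT against Tet2-E 675 genes passed, 1052 with a term for the set, 1015 within numbers 1 and 2 and 335 to 675 without single libraries.

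The noncoding minus coding value of pMXs over Untreated (4.71) was 5.709 from summed counts, 5.708 with a prior count of 0.5, 4.055 with 5 and 5.664 without Dio3 and Mirg. Tet2-WT minus pMXs (-0.349) became 0.049 from summed counts and 0.045 without Dio3 and Mirg. Tet2-E minus pMXs (-0.318) became -0.030 and -0.031 there, and -0.560 with a prior count of 0.5. Tet2-WT minus Tet2-E (-0.031) became 0.079 and 0.075, and ran from -0.184 to 0.208 without single libraries. The cause of these moves was not tested.

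Some values that passed in no setting changed sign. In Tet2-WT against pMXs, Rtl1 (0.410) was -0.010 within numbers 1 and 2, -0.229 within 100 and 250, and -0.051 to 0.928 without single libraries. Begain (-0.065) was 0.271, 0.059 and -0.243 to 0.151. In Tet2-E against pMXs, Rtl1 (0.210) was -0.231 within 1 and 2 and -0.209 to 0.726 without single libraries, and Begain (-0.193) was 0.162 and -0.370 to 0.023. In Tet2-WT against Tet2-E, Mirg (-0.053) was 0.068 within 1 and 2 and -0.142 to 0.022 without single libraries. Within 100 and 250 Dio3 (0.281) was -2.058 and Rtl1 (0.201) -0.686. Without single libraries they ran from -2.295 to 0.885 and from -0.261 to 0.538, and Begain (0.127) from -0.044 to 0.248. Depth limits Dio3, Rtl1 and the small RNA rows.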
